A study of Rattus norvegicus with 6 samples.

Results

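Runx2, Sp7 and Dlx5, which encode the core transcription factors of bone-forming osteoblasts, were measured in cells from rat long bones that attached to 1 of 2 proteins. The 3 genes were taken by symbol from the array annotation, each from a probe set annotated with that symbol alone, and make up 3 of the 14506 genes so named. Each is measured by 1 probe set, so no choice between rows was needed. The bone cells came from Sprague Dawley rats aged 2 to 5 days and were left to adhere to wells coated with prothrombin (PT, from mouse), the precursor of the clotting protease thrombin, or with osteopontin (OPN, from bovine milk), a phosphoprotein of bone matrix. RNA of the adherent cells was hybridised to Affymetrix Rat Gene 1.0 ST arrays, 3 for each coating, numbered 1, 2 and 4 for PT and 2, 3 and 4 for OPN. No genotype or drug distinguishes the groups, and the coating that retained the cells is the difference between them. Beyond adhesion, no sorting of the cells is named, so each array reads a mixture. The labels do not say whether the arrays came from separate animals or cell preparations, so the p-values measure the spread between these arrays, which may be technical.

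The 3 factors act in sequence in skeletal development. Dlx5, a homeodomain protein induced by bone morphogenetic proteins (BMPs), acts early and can raise Runx2 and Sp7. Runx2 binds DNA through its runt domain together with the partner Cbfb and is required for osteoblasts to form, and it also serves cartilage cells as they enlarge before ossification. Sp7, or osterix, is a zinc finger protein that is needed downstream of Runx2 for cells to make mineralised matrix.

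All 3 genes stood higher in OPN-adherent cells. The differences were 2.19-fold for Runx2, 1.75-fold for Dlx5 and 1.35-fold for Sp7, and for each of them every OPN array exceeded every PT array. Folds and differences are on the scale log2(signal + 16), which understates the change of dim probe sets. A gene is called, and said to have risen or fallen, where limma's test over all 29215 rows gives a Benjamini-Hochberg adjusted p below 0.05. By that rule 7.62% of all named genes were called higher on OPN and 1.12% lower. Arrays that did not overlap were more common still, with 21.6% of named genes higher on every OPN array than on every PT array. In bulk RNA such a difference can come from more cells of a type or from more RNA per cell, and these cannot be told apart here.

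Median signals of the arrays ran from 207.8 to 231.4 units. The log2 values of arrays of 1 coating correlated over all rows at 0.988 or more, and those of different coatings at 0.979 or less. Over the whole table the test called 1475 rows higher on OPN (5.05%) and 225 lower (0.77%). Made with equal array medians, the counts were 1193 and 551, and with quantile normalisation 1360 and 745. Without OPN replicate 2 they were 982 and 98, and without OPN replicate 3 928 and 95. The lower calls numbered 121 without PT replicate 2, 129 without PT replicate 4 and 99 without OPN replicate 4.

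**Figure D1:**
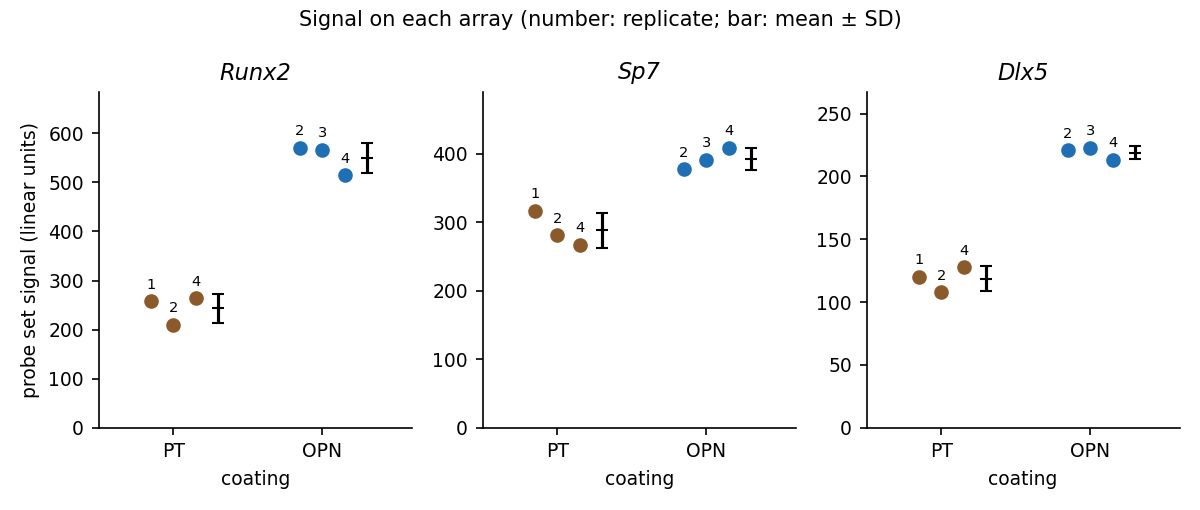
Signal of the Runx2, Sp7 and Dlx5 probe sets in linear units (vertical axes from 0, each gene on its own scale) by coating, with 1 point per array, its replicate number above it, and the mean ± SD of 3 arrays beside the points. The OPN arrays lie above the PT arrays for each gene, with the narrowest gap for Sp7, whose highest PT array (317) and lowest OPN array (377) are 60.5 units apart.

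Dlx5, the earliest acting of the 3 in bone development, had signals of 120, 108 and 128 units on PT replicates 1, 2 and 4, and of 221, 223 and 213 units on OPN replicates 2, 3 and 4. Every OPN array lay at least 85.9 units above the highest PT array, and PT replicate 2 was the lowest of all. The means were 118.5 ± 10.01 units on PT and 219 ± 4.89 on OPN (SD, n = 3). The difference was 0.81 on the log2 scale (SE 0.08, adjusted p = 0.000343 in limma's test). It remained called whichever array was left out, with adjusted p between 0.00120 and 0.00337. Its probe set was dim, with a mean signal higher than that of 29.0% of named genes.

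Runx2, the runt-domain factor, had 258, 210 and 264 units on PT replicates 1, 2 and 4, and 570, 566 and 515 units on OPN replicates 2, 3 and 4. As for Dlx5, PT replicate 2 was the lowest array and OPN replicate 4 the lowest on its coating, while a gap of 251 units separated the coatings. The means were 244 ± 29.6 units on PT and 550.4 ± 30.9 on OPN (SD, n = 3), a log2 difference of 1.13 (SE 0.10, adjusted p = 0.000196 in limma's test). With any 1 array left out the adjusted p stayed between 0.000298 and 0.00191. Of the 14506 named genes, 200 had a larger difference, or 1.38%, against 324 for Dlx5 and 827 for Sp7. Runx2, unlike Dlx5 and Sp7, was called with a difference of at least 2-fold, as were 1.63% of named genes in that direction.

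The rat Runx2 gene is transcribed from 2 starts, and RefSeq (build GRCr8) gives a window at each, 78182 bases apart. The upstream sequences are shown because Runx2 is known to bind its own distal promoter and because the array reads the gene as 1 value. That value cannot tell transcripts of the starts apart. The first and second lines give the 250 bases before the distal start (chr9:23664808-23665057, plus strand) and a stretch just after it (chr9:23665084-23665098), with matches to the RUNX-type motif AACCACA, searched on both strands, in capitals. The third gives the 250 bases before the proximal start (chr9:23742990-23743239, plus strand), with a match to the SP-type motif GGGCGG, here as its reverse complement, in capitals.
Runx2 distal, before the start: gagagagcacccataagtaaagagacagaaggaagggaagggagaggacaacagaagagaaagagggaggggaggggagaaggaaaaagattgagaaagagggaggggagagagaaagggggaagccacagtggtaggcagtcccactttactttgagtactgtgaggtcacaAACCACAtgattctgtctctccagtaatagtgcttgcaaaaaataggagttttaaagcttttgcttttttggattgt
Runx2 distal, after the start: AACCACAgAACCACA
Runx2 proximal, before the start: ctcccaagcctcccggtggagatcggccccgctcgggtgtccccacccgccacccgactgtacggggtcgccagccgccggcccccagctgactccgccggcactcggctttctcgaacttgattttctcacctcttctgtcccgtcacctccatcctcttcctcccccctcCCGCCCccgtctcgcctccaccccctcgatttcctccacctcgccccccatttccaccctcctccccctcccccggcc
The distal window of 300 bases held 3 matches to AACCACA, the first at 77 to 71 bases before the start, and the proximal window held 0. Of 33469 such windows in the table, 5.57% held at least 1 match and 0.0179%, or 6 windows, held 3 or more. GGGCGG, present once in the proximal window, stood in 33.1% of all windows. The homeodomain-type motif TAATTA, in 5.36% of all windows, was in neither. A match is a run of letters and does not show that a factor was bound. Sp7 and Dlx5 are not shown.

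Sp7, the zinc finger factor, had 317, 281 and 267 units on PT replicates 1, 2 and 4, and 377, 391 and 408 units on OPN replicates 2, 3 and 4. The coatings did not overlap, but PT replicate 1 came within 60.5 units of OPN replicate 2. Here PT replicate 4 was the lowest array and OPN replicate 4 the highest, unlike for Runx2 and Dlx5. The means were 288 ± 25.7 units on PT and 392 ± 15.5 on OPN (SD, n = 3), a log2 difference of 0.43 (SE 0.08, adjusted p = 0.0167 in limma's test). This call depended on single arrays. It was lost without PT replicate 2 (adjusted p = 0.0603), PT replicate 4 (0.0564), OPN replicate 3 (0.0726) or OPN replicate 4 (0.0690), while the difference itself stayed between 0.38 and 0.49 when any 1 array was left out.

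The measured differences of the 3 genes between coatings were unequal. Taken per array, the log2 value of Sp7 minus that of Runx2 changed by -0.70 from PT to OPN, with SDs of 0.19 on PT and 0.13 on OPN over 3 arrays each. Dlx5 minus Runx2 changed by -0.32 (SDs 0.07 and 0.05), and Sp7 minus Dlx5 by -0.38 (SDs 0.17 and 0.08). The arrays of the coatings did not overlap in any of these 3 quantities. By an exact permutation test, two-sided, each had p = 0.1, also after adjustment over 6 such quantities, and no smaller p is possible with 3 against 3 arrays. The order of the differences, with Runx2 first, Dlx5 next and Sp7 last, was also that of the values with any 1 array left out. Their spacing depended on the offset, with Sp7 minus Dlx5 at -0.44 for an offset of 1 and -0.26 for 64. Dlx5 minus Runx2 was -0.29 and -0.37 at these offsets. The share of background in each probe set is unknown, so unequal measured differences need not mean unequal differences in RNA.

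Relatives of the 3 factors were examined next. Of 12 measured genes of the RUNX, SP, DLX and MSX families and Cbfb, 1 was called higher and 1 lower, beside 7.62% and 1.12% of named genes, so the share called higher was near that of genes at large. Their median difference was 0.09, against 0.04 over all named genes. The one that rose was Cbfb, the partner with which RUNX proteins bind DNA. It had 320, 319 and 360 units on PT replicates 1, 2 and 4 and 455, 504 and 475 on OPN replicates 2, 3 and 4. All OPN arrays were above all PT arrays, and the difference was 0.50 (SE 0.08, adjusted p = 0.00587 in limma's test). Runx1, which blood-forming cells need, differed by 0.11 (SE 0.07, adjusted p = 0.473 in limma's test) and Runx3 by 0.08 (SE 0.06, adjusted p = 0.626). Among SP genes, Sp4 fell by 0.31 (adjusted p = 0.0402), a call lost without each of the 6 arrays in turn (adjusted p between 0.0585 and 0.170), and Sp1 (-0.14), Sp2 (-0.03) and Sp6 (0.11) were not called. Dlx3 (0.18), Dlx4 (-0.01) and Dlx1 (-0.15) were not called, nor were Msx1 (0.28) and Msx2 (0.15), homeodomain genes of the same broad group. Without PT replicate 1, Msx1 was called higher (0.38, adjusted p = 0.0284). Dlx6, the neighbour of Dlx5 in the genome, was not analysed here, and neither were Dlx2, Sp3, Sp5, Sp8 and Sp9.

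**Figure D2:**
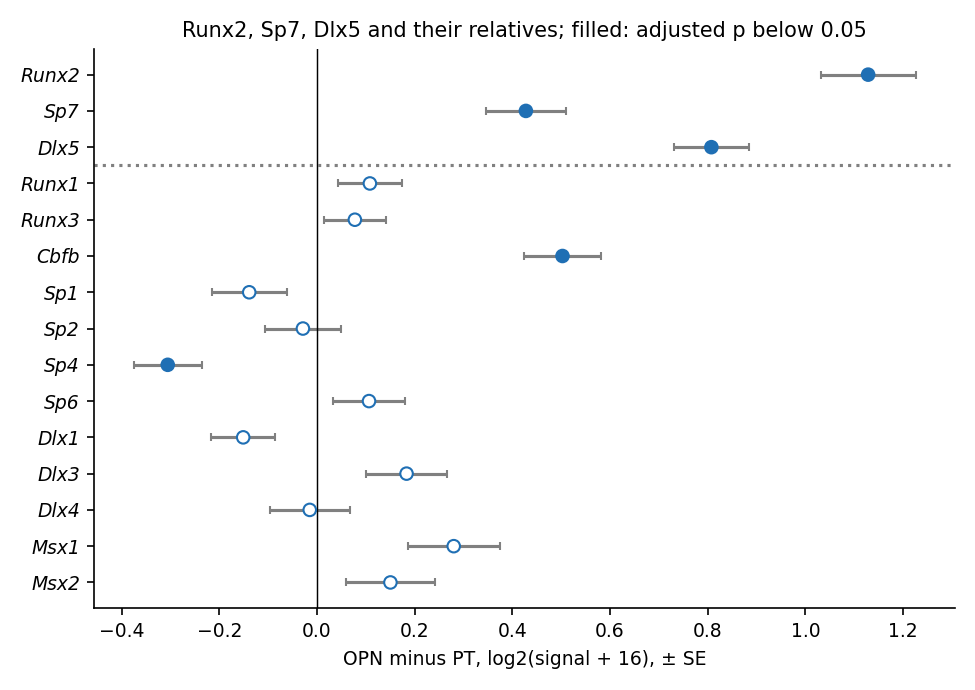
Differences (horizontal axis, OPN minus PT, log2(signal + 16), ± SE) of Runx2, Sp7 and Dlx5 above the dotted line and of 12 related genes below it. Filled points pass an adjusted p of 0.05; below the line these are Cbfb (0.50) and Sp4 (-0.31).

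Genes of BMP signalling, which induces Dlx5 and Runx2, were next examined. Calls were made for 12 of 21 measured genes, all of them higher, beside 7.62% of named genes called in that direction, and the list's median was 0.35. Bmpr2 (1.00) and Bmpr1a (0.99), which encode a type II and a type I receptor, rose with Acvr1 (0.83), Smad5 (0.59), Smad1 (0.35) and Smad4 (0.31), also receptor or signal-carrying genes. Of the ligands, Bmp2 (0.92), Bmp5 (0.48) and Bmp6 (0.35) rose, while Bmp4 (0.05) and Bmp7 (-0.06) were not called. The receptor genes Acvr2a (0.24), Acvr2b (0.07) and Bmpr1b (-0.09) and the signal-carrying Smad9 (0.21) were not called either. The rest of the calls were genes that restrain the pathway, namely the secreted antagonist Grem1 (1.37), the pseudoreceptor Bambi (0.81) and the inhibitory Smad6 (0.72). Grem1 had the largest difference of the list, with 112 ± 11.6 units on PT and 314 ± 23.9 on OPN (SD, n = 3). The antagonists Nog (0.00, SE 0.10) and Chrd (-0.01, SE 0.07) were not called. Smad7, also an inhibitory Smad gene, was not called either, with differences of 0.16 to 0.23 when any 1 array was left out. Calls of 8 of these 12 genes held whichever array was left out, and those of Bmp5, Bmp6, Smad1 and Smad4 did not, with adjusted p reaching 0.0826, 0.133, 0.0856 and 0.135. With equal array medians the calls of Bmp5, Bmp6 and Smad4 were lost too (adjusted p = 0.0611, 0.0562 and 0.0690), and with quantile normalisation that of Bmp5 (adjusted p = 0.0759). Grem1, Bmpr2, Bambi and Bmpr1a were named for having the smallest p of this list in limma's test, and its other genes after their values were seen.

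Other transcriptional regulators of bone cells differed by widely varying amounts. In a list of 25 measured genes, 9 passed the test, all in the direction of OPN, beside 7.62% of named genes called in that direction. The median difference was 0.18, against 0.04 over all named genes. The limb mesenchyme factor Prrx1 (1.82, SE 0.15) and Creb3l1 (1.59, SE 0.08), which promotes collagen production in osteoblasts, had larger differences than Runx2. Klf4 (0.94) and the vitamin D receptor gene Vdr (0.90) lay between Runx2 and Dlx5. Calls of 7 of the 9 genes held whichever array was left out. Those of Gli3 and Tead2 did not, with adjusted p reaching 0.0658 and 0.0695 in limma's test. A further list held 19 measured genes grouped here as restrainers of Runx2, Sp7 or osteoblast formation. That role was not tested and may not hold for each of them, Id3 included. Of these 19 genes, 7 passed in the direction of OPN and 0 in the other (median 0.24), beside 7.62% and 1.12% of named genes. Twist1, which blocks the DNA binding of Runx2 and stands in both lists, had 74.3, 40.9 and 74.03 units on PT replicates 1, 2 and 4 and 205, 192 and 214 on OPN replicates 2, 3 and 4. The OPN arrays were all higher, by 1.51 on the log2 scale (SE 0.17, adjusted p = 0.000895 in limma's test). Snai1 (0.73), a repressor of Runx2, Id3 (0.49), a BMP-induced antagonist of helix-loop-helix factors, and Tob1 (0.52), an inhibitor of BMP signalling, rose as well. Calls of 3 of the 7 restrainers that rose held whichever array was left out. The call of Tob1 was lost without OPN replicate 3 (adjusted p = 0.0540). Those of Hes1, Smurf2 and Tle1 were also lost without some single arrays, with adjusted p reaching 0.0631, 0.0986 and 0.145 in limma's test. The count of restrainers that rose was 4 without OPN replicate 2 and 3 without OPN replicate 3.

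**Figure D3:**
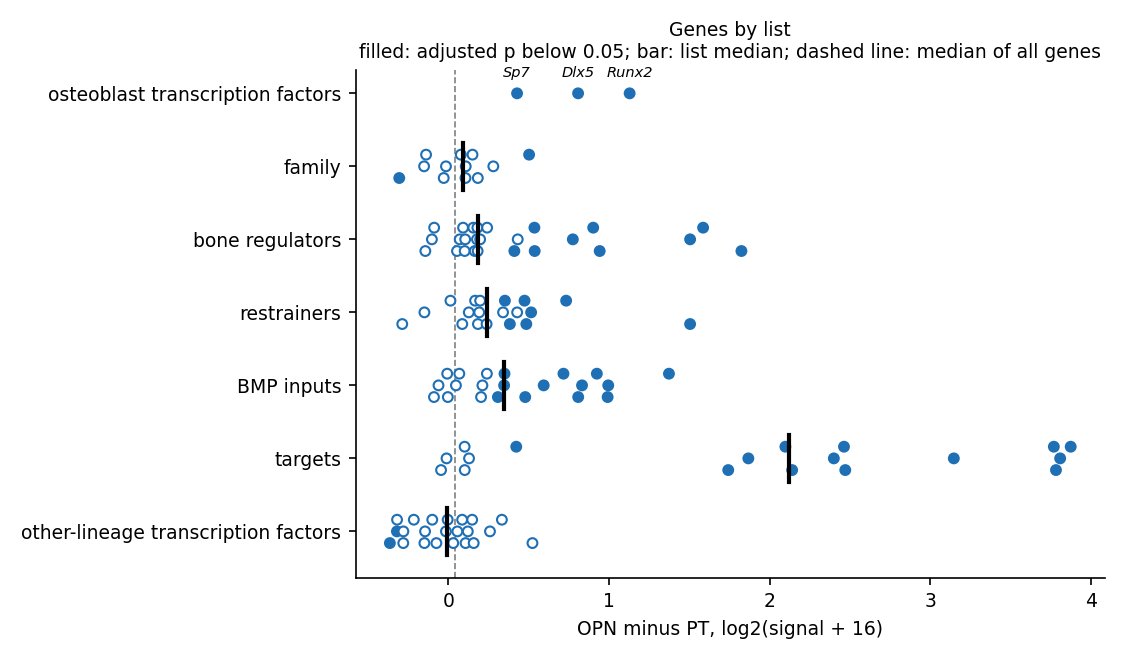
Differences (horizontal axis, OPN minus PT, log2(signal + 16)) of Runx2, Sp7 and Dlx5 and of the genes of 6 lists, 1 point per gene, filled where the adjusted p is below 0.05. The black bars are list medians, from -0.01 for transcription factors of other lineages to 2.12 for the target genes, and the dashed line is the median of all genes (0.04).

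Genes that Runx2, Sp7 or Dlx5 are known to activate gave the largest median of these 6 lists. The test called 13 of 18 measured target genes higher and 0 lower, beside 7.62% and 1.12% of named genes. The median difference was 2.12. The collagenase gene Mmp13 was 14.02-fold higher on OPN, the channel gene Panx3 13.8-fold, the osteopontin gene Spp1 13.6-fold and the endopeptidase gene Phex 8.86-fold. Bglap, the osteocalcin gene, is described for its classic RUNX site and was chosen after its values were seen. It had 230, 221 and 216 units on PT replicates 1, 2 and 4 and 1226, 1457 and 1226 units on OPN replicates 2, 3 and 4. All OPN arrays lay far above all PT arrays, and the difference was 2.46 (SE 0.09, adjusted p = 9.02e-07 in limma's test). Its promoter from 149 to 83 bases before the start (chr2:176137401-176137467, minus strand, GRCr8, RefSeq) shows the same motif as the distal Runx2 window, in capitals.
Bglap, before the start: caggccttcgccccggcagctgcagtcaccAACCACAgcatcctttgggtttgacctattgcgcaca
Of the 12 target genes with a window in the RefSeq table, 2 held AACCACA, namely Bglap and Mmp13. The 5 targets that were not called, named here after their values were seen, were Tnfrsf11b (0.10), Fmod (0.10), Sost (-0.01), a gene of mature osteocytes, and Col10a1 (0.13) and Ihh (-0.05), genes of enlarging cartilage cells. The call of Vegfa (0.42), the smallest among the targets that rose, was lost without OPN replicate 2 (adjusted p = 0.0505).

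Whether the factors differed by as much as osteoblast markers was examined by setting each against those markers on the same array. All 12 measured markers rose, beside 7.62% of named genes, with a median of 2.43 and a mean of 2.24. Of these, 8 also stand in the target list. The call of Mepe was lost without any 1 of the 6 arrays (adjusted p up to 0.177) and with equal array medians (0.0579), and that of Omd without OPN replicate 3, OPN replicate 2, PT replicate 1 or PT replicate 2 (up to 0.0623). The difference of Runx2 minus that mean was -1.11, that of Dlx5 -1.43 and that of Sp7 -1.81. The values minus the marker mean did not overlap between coatings for any of the 3 genes (exact two-sided permutation test, p = 0.1 each, the smallest possible with 3 against 3 arrays). The share of background in these probe sets is unknown, and the markers were chosen with earlier results of these data known. Both limit what the gaps show.

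Markers of other cells moved on the same arrays, and their part in the differences of Runx2, Sp7 and Dlx5 was not tested. Their counts stand beside 7.62% of named genes called higher and 1.12% called lower. All 10 measured stromal markers rose (median 1.38), and their summed signal went from 1809 to 1888 units on PT arrays to between 6097 and 6550 on OPN arrays. The call of 1 of them, Thy1, was lost when PT replicate 2 or any of the OPN arrays was left out (adjusted p up to 0.0875). For osteoblast markers the sums were 10956 to 11863 on PT and 57116 to 63876 on OPN. Of the osteoclast markers 7 of 9 rose (median 1.74, sums 11162 to 13392 on PT and 28744 to 32270 on OPN), of the endothelial markers 7 of 10 (median 0.60, sums 2062 to 2207 and 3161 to 3321) and of the megakaryocyte markers 5 of 5 (median 0.74, sums 2001 to 2095 and 3467 to 3761). Macrophage markers fell in 7 of 11 cases (median -0.58, sums 13157 to 13751 on PT and 9296 to 9968 on OPN).

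Cartilage cells also use Runx2, Sp7 and Dlx5. Their markers had a median of 0.10 and summed signals of 2824 to 3138 units on PT and 3174 to 3422 on OPN. Of 11 measured cartilage markers 1 rose, or 9.09%, near the 7.62% of named genes called higher. That gene, Col2a1 (0.41, adjusted p = 0.0141), lost its call without PT replicate 2, PT replicate 4, OPN replicate 2 or OPN replicate 3, with adjusted p up to 0.0726. Of 8 adipocyte markers 1, Lpl, rose (median -0.05, sums 2489 to 2743 and 2477 to 2550), beside 7.62% of named genes. Of 7 erythroid markers 1, Rhag, fell (median -0.24, sums 37607 to 42968 and 33815 to 36013), beside 1.12% of named genes called lower. Each of these calls was lost without some single arrays, that of Lpl without OPN replicate 3 (adjusted p = 0.0546) and that of Rhag without any but PT replicate 1 (adjusted p up to 0.189) or with an offset of 1 (adjusted p = 0.0641). In limma's test 0 of 8 granulocyte (median 0.36, sums 9178 to 14919 and 13553 to 15298), 0 of 2 B cell (0.01, 838 to 935.1 and 857 to 935.5), 0 of 5 T cell (0.12, 870 to 934.4 and 981 to 995) and 0 of 6 skeletal muscle markers (0.00, 1534 to 1646 and 1475 to 1651) were called. Without PT replicate 4, 5 of the 8 granulocyte markers were called higher. Without that array the differences were 1.19 for Runx2, 0.86 for Dlx5 and 0.38 for Sp7. No measured marker of any list was below 16 units on all 6 arrays, which without detection calls does not show that each cell type was present.

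**Figure D4:**
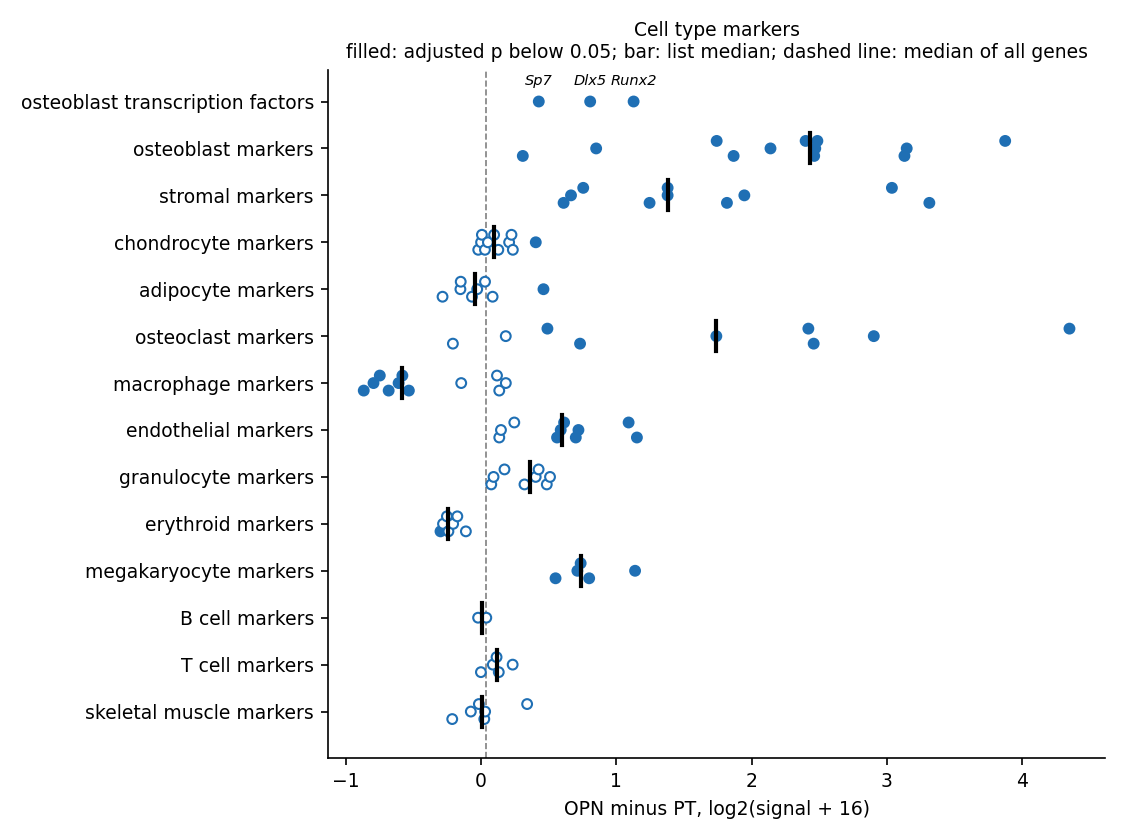
Differences (horizontal axis, OPN minus PT, log2(signal + 16)) of Runx2, Sp7 and Dlx5 in the top line and of markers of 13 cell types below, 1 point per gene, filled where the adjusted p is below 0.05. List medians (black bars) run from -0.58 for macrophages to 2.43 for osteoblasts, and the dashed line is the median of all genes (0.04).

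Transcription factors that mark other lineages of bone and marrow were also examined. Of 22 measured, limma's test called 0 higher and 2 lower (median -0.01), beside 7.62% and 1.12% of named genes. The calls were Sox6 (-0.36, adjusted p = 0.0115), of cartilage and red cell precursors, and Tfec (-0.32, adjusted p = 0.0317), of myeloid cells. That of Sox6 was lost without OPN replicate 2 (adjusted p = 0.0700) and that of Tfec without any array but PT replicate 1 (adjusted p up to 0.129). Gfi1b (-0.28), of platelet and red cell precursors, and Ebf1 (0.33), of B cells and marrow stroma, had adjusted p = 0.0531 and 0.0617. Without PT replicate 4, 2 of these genes were called higher, Ebf1 (0.41, adjusted p = 0.0318) and the endothelial Sox17 (0.69, adjusted p = 0.0412), and without PT replicate 1 the lower calls were 3, Gfi1b among them (adjusted p = 0.0486). With equal array medians or quantile normalisation the lower calls were 5.

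The genes whose values over the 6 arrays most resembled each factor were sought among the other 14505 named genes by the root mean square (RMS) difference of log2 values centred on each gene's mean. Because the coatings dominate such profiles, this picks genes with a difference of like size. Nearest to Runx2 were Angptl4 (RMS 0.036), which encodes an inhibitor of lipoprotein lipase, Ccdc80 (0.048), Lgalsl (0.050) and the actin-severing protein gene Gsn (0.056). Nearest to Dlx5 were the ETS-family transcription factor gene Elk3 (0.019), Arl1 (0.024), Gucy1a1 (0.035), a subunit of the nitric oxide receptor, and Clmp (0.039). Nearest to Sp7 were Tmem185a (0.030), the lipoprotein lipase gene Lpl (0.034), Ccdc50 (0.035) and the actin-binding drebrin gene Dbn1 (0.036). By this measure Runx2 and Dlx5 (RMS 0.17) were in places 125 and 397 of each other's lists. Sp7 was in place 697 of the list for Dlx5 (RMS 0.22) and 781 of that for Runx2 (RMS 0.38). In the list for Sp7, Dlx5 was in place 5989 and Runx2 in place 14032.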

How the data were processed

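Expression was measured on 6 one-colour arrays. The deposited values are linear intensities, 1 per array for each probe set, summarised with PLIER in Affymetrix Expression Console per the submitters' processing notes. How the background was corrected or arrays were scaled was not given in the sources used here. Further, the share of background in dim rows is unknown, since no detection calls entered. The number of arrays limits the precision.

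Rows were named through the platform annotation, in which 15310 of 29215 rows had 1 symbol, 323 several and 13582 none. By Entrez identifier, 15279 of the rows with 1 symbol were found in the GRCr8 table, and 0 symbols changed. For 527 genes with several rows the row with the highest mean was used. Runx2, Sp7 and Dlx5 were compared on log2(intensity + 16) with lmFit and eBayes of limma 3.58.1 (R 4.3.3), fitted to all rows with a term for the coating and adjusted by Benjamini-Hochberg over all rows. Per-array quantities were tested by exact permutation with scipy 1.17.1. Promoter windows (250 bases before and 50 after a start) are RefSeq's on GRCr8, and 1 of the 3 genes had any.

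The genes and lists were chosen with earlier results of these data known. Of 232 listed genes, 203 were named by the annotation. The genes named are the 3 factors, all measured relatives, up to 4 genes per other pathway list with the smallest p, and the 4 nearest profiles of each factor. Other genes of these lists were named after their values were seen. Marker lists are given by counts, with called genes of small groups named. Groups and replicate numbers come from the sample titles. Alternatives changed the offset, the scaling, a filter on low rows, the variance prior, the replicate block or the arrays included. Checked on simulated arrays of 29215 rows for OPN against PT, the test called 73.5% of 68 rows that were shifted by 0.5 (log2), 98.3% of 59 shifted by 1 and 100% of 73 shifted by 2, with 13 false calls. The simulated noise was normal and independent, with the spread that limma estimated for each row. Far fewer rows were shifted than were called in the data, so these shares need not hold for the real arrays.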

Additional observations from a re-analysis of the deposited data

How the results depend on the processing

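Runx2 and Dlx5 kept their direction and their call in all 13 alternatives, with differences of 1.00 to 1.19 and 0.63 to 0.88. Sp7 kept its direction in all 13 (0.35 to 0.50) and its call in 8. With 1 array left out, its value ranged from 0.38 to 0.49 and lost the call in 4 of 6 cases. Replicate numbers 2 and 4 occur on both coatings. Deviations of arrays with the same number had r = -0.08 for number 2 and 0.07 for number 4, across rows. For unlike numbers r ran from -0.11 to 0.18, the highest being that of PT replicate 1 with OPN replicate 2. The numbers were not taken as pairs, but such values cannot decide whether a preparation was shared. The labels do not say whether the numbers mark a shared preparation. Fitted with a replicate block, the difference of Sp7 was 0.50 with adjusted p = 0.0980, and Runx2 and Dlx5 stayed called (adjusted p = 0.00786 and 0.0191). That fit takes the coating difference from numbers 2 and 4 alone, since PT replicate 1 and OPN replicate 3 have no partner. With few residual degrees of freedom, it called 618 rows higher and 48 lower, and 0 relatives higher and 0 lower. It also called 2 restrainers and 7 BMP genes higher, and 0 transcription factors of other lineages lower.

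Lower calls over all rows numbered 382 with an offset of 64, 551 with equal medians, 745 with quantile normalisation, 343 without rows of mean signal below 100, and 508 with an intensity trend in eBayes. Each of these settings called 1 restrainer, Wwp1, lower. Of the transcription factors of other lineages they called 4, 5, 5, 4 and 4 lower, and 2, 1 and 2 higher with the offset of 64, the filter and the trend. An offset of 64 changed the differences of Runx2 and Sp7 from the marker mean to -1.04 and -1.66. Over single arrays left out, rows called higher ranged from 928 to 1357 and lower from 95 to 181, relatives higher from 1 to 2 and lower from 0 to 0, restrainers higher from 3 to 7, and other-lineage factors higher from 0 to 2 and lower from 0 to 3. For 214 further genes, 2499 values kept direction and call, 133 lost a call and 50 gained one. The other 90, of 31 genes, changed sign without a call in either setting and were at most 0.15 in size, and 0 called values changed sign. The causes were not tested.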
